A study of Mus musculus with 27 samples.

Results

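The comparison described here asked what the Cas13d effector, paired with a crRNA that has no intended target, changed in wild-type motor cortex (MC). It used 9 of the 27 libraries of the series, chosen by their labels alone. Of these, 5 came from C57BL/6J mice labelled RfxCas13d/NTG + EGFP-KASH, where NTG is the non-targeted crRNA, and 4 came from C57BL/6J mice labelled EGFP-KASH only. For the NTG mice the study's text names the high-fidelity variant RfxCas13d-N2V8 in place of RfxCas13d, an injection into the MC at 6 weeks of age and collection of nuclei 2 months later. It describes these mice as littermates of C9-BACexp mice, and it does not give the age, dose or interval of the mice with EGFP-KASH only. Neither group carries the human C9ORF72 transgene by its label, and the human C9ORF72 transcripts had 0 counts in all 9 libraries. The vectors were AAV PHP.eB and used the CAG promoter, which is active in many cell types. NTG mice received an effector vector in addition to the EGFP-KASH vector, so the effector, its crRNA and the added vector cannot be told apart.

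Cas13d is a nuclease that a crRNA guides to RNA. Once bound to a matching transcript it can also cut bystander RNA, which is called collateral cleavage, and high-fidelity variants such as N2V8 were engineered to lower it. Foreign RNA and vector genomes can be sensed by innate receptors that induce interferon, and interferon in turn induces a broad set of antiviral genes. EGFP-KASH is a fluorescent protein held at the nuclear envelope by its KASH domain, which lets nuclei of transduced cells be sorted. The labels call the cells primary neurons, but the sort was for EGFP and not for a neuronal marker.

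The 9 libraries held 21508829 to 35834122 counts, and 3 counts, the limit that a count of 0 allows, corresponded to 0.0837 to 0.139 CPM (counts scaled to a common library size with TMM normalization), a limit that covers counting error only. Neuronal markers were abundant in every library, with the vesicle protein gene Syt1 at 1911 to 2934 CPM and Rbfox3, which encodes NeuN, at 726.5 to 1647 CPM. Markers of microglia and T cells were scarce, with Cx3cr1 at 0.335 to 3.39 CPM and Cd3e at 0 CPM in 7 libraries and at most 0.0814 CPM. The X-inactivation RNA Xist exceeded 50 CPM in 3 of 4 libraries with EGFP-KASH only and in 2 of 5 NTG libraries, so the sexes were not in equal shares. Since these are bulk samples, fewer nuclei of a type and less RNA per nucleus cannot be told apart.

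NTG did not separate from EGFP-KASH only at the limits used. Of 21768 genes tested, 0 were called at a fold change (FC) over 1.2 and an adjusted p under 0.05 (edgeR's quasi-likelihood test with Benjamini-Hochberg adjustment and 4 factors of unwanted variation), which is 0% called, and the smallest adjusted p was 0.175. At an unadjusted p under 0.05 there were 1712 genes (7.86%), 935 of them higher with NTG (4.3%) and 777 lower (3.57%). Without the factors, edgeR again called 0 genes, with 828 (3.8%) at an unadjusted p under 0.05, 402 higher (1.85%) and 426 lower (1.96%). The method named in the study, limma-trend, called 0 genes with and without factors, with 1674 and 648 genes at an unadjusted p under 0.05. Its p-values were adjusted within the comparison only, unlike in the study. DESeq2 called 55 genes with the factors (0.253%) and 21 without (0.0965%), 14 of them in both. Of the 55, 19 had a mean under 1 CPM and for 18 the fitted FC had no finite limit. The study adjusted p-values over its pairwise comparisons together but does not list these comparisons. With edgeR's p-values adjusted together over 9 comparisons, chosen here from the groups of the series, 23 genes were called, 7 higher and 16 lower. DESeq2 with the factors also called 18 of the 23. Among the 23 were Trib3, Hsp90ab1, Hsp90aa1, Plxnc1, Calm2, Abca8b and Rhbdd1, which are described with their values further on. Leaving out 1 library at a time gave 0 calls in 6 of the 9 fits, 14 without EGFP-KASH only replicate 2, 3 without EGFP-KASH only replicate 5 and 11 without NTG replicate 5.

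The absence of a call does not show that levels were alike, so the width of the intervals is given. Among the 15886 genes that averaged 1 CPM or more, the 95% interval of the NTG difference lay within 1.5-fold in either direction for 9462 (59.6%) and within 2-fold for 12705 (79.98%). The share within 1.5-fold climbed with the level of the gene, from 3.51% of genes at 1 to 3 CPM to 94.3% of genes above 100 CPM. Without factors the intervals were wider, and 46.8% of these genes lay within 1.5-fold. The median fitted log2 FC over all tested genes was 0.01.

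**Figure D1:**
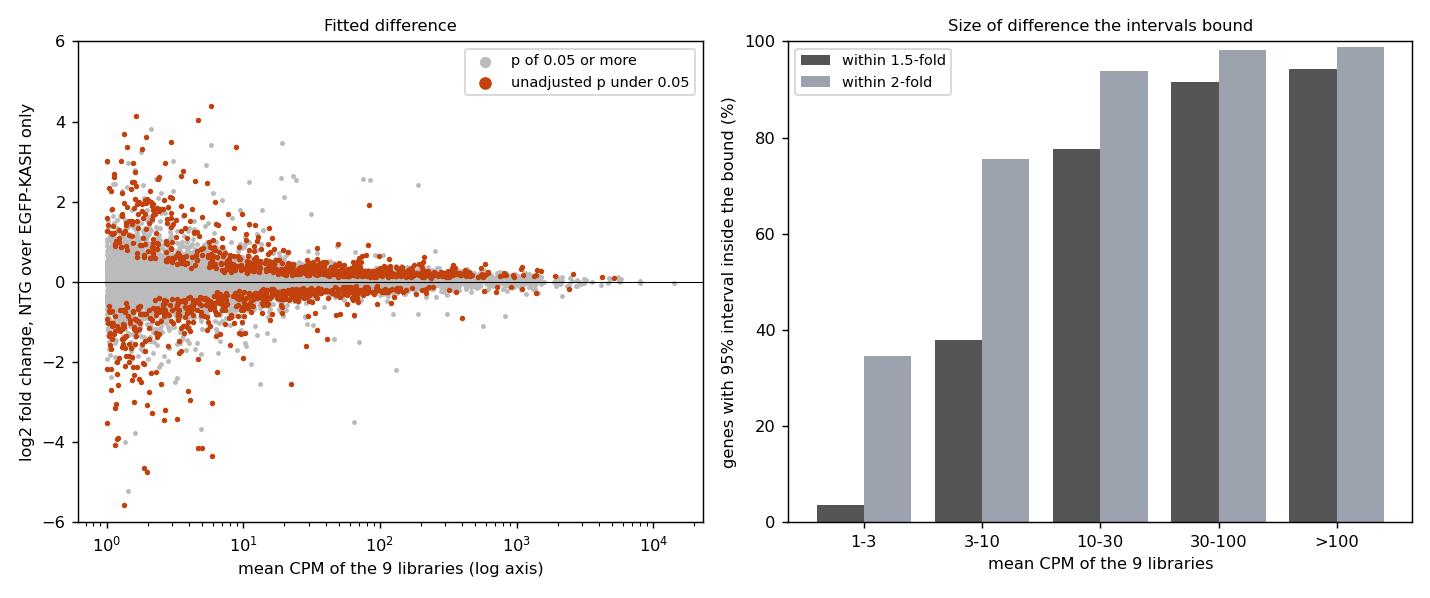
Left, fitted log2 FC of NTG over EGFP-KASH only (y axis) against mean CPM of the 9 C57BL/6J libraries (x axis, log scale) for genes of at least 1 CPM, with genes at an unadjusted p under 0.05 in orange and 6 genes beyond the axis not drawn. Right, percentage of genes whose 95% interval lay within 1.5-fold (dark bars) or 2-fold (light bars) by mean CPM, rising from 3.51% to 94.3% for 1.5-fold.

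Genes of RNA handling were examined first. Their RNA levels do not measure collateral cleavage, which was not tested. A general loss of RNA would also be hidden by scaling to a common library size. The lists held 52 genes of RNA decay and surveillance and 94 splicing factors, all of them tested. None was called. The RNA decay list had 36 members with a fitted log2 FC above 0 and 16 below, with a median of 0.06, and 4 members higher and 1 lower at an unadjusted p under 0.05, or 7.69% and 1.92% against 4.3% and 3.57% of all genes. Without the factors 0 were higher and 0 were lower at that level, against 1.85% and 1.96% of all genes. Xrn2, the nuclear exonuclease that degrades RNA from its 5′ end, was at 45.9, 45.2, 66.5 and 74.3 CPM with EGFP-KASH only and at 64.1, 73.1, 55.1, 66.9 and 72.7 CPM with NTG. The groups overlapped, and the log2 FC was 0.22 ± 0.07 (SE) with an adjusted p of 0.483 in edgeR. Pan3, a subunit of a poly(A) nuclease, had a log2 FC of 0.20 ± 0.08 (SE; adjusted p = 0.542 in edgeR) over overlapping groups. For 45 of the 52 members, or 86.5%, the interval lay within 1.5-fold, against 43.5% of all tested genes. Interval width followed the level of the gene. The list had a median of 40.7 CPM, and 91.5% of genes at 30 to 100 CPM lay within 1.5-fold. It was thus no more tightly bounded than genes at such levels.

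Splicing factors were the most tightly bounded of the 33 lists, at a median level of 72.7 CPM. Of genes at 30 to 100 CPM, 91.5% lay within 1.5-fold. The 95% intervals of all 94 members lay within 1.5-fold, and the fitted log2 FCs ran from -0.19 for Rbm17 to 0.24 for Srrm4, the neuronal splicing regulator. Their median was 0.05, with 65 above 0 and 29 below. At an unadjusted p under 0.05, 10 were higher and 1 lower with the factors. These are 10.6% and 1.06%, against 4.3% and 3.57% of all genes. Without the factors 1 was higher and 0 were lower, against 1.85% and 1.96% of all genes. Srsf10, an SR protein, was at 36.6, 36.9, 42.3 and 45.7 CPM with EGFP-KASH only and at 57.04, 47.7, 38.1, 46.2 and 45.1 CPM with NTG, with a log2 FC of 0.21 ± 0.07 (SE; adjusted p = 0.523 in edgeR). NTG replicate 1 was the highest of the 9 libraries, and the other 4 NTG libraries overlapped the EGFP-KASH only range. Nuclear long non-coding RNAs, which stay in the compartment that was sorted, had 12 of 18 members above 0 with a median of 0.09, and 14 of the 18 intervals lay within 1.5-fold.

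Interferon-stimulated genes were the list with the highest median, which came near 0 when 1 NTG library was left out. Of 51 tested members, 47 had a fitted log2 FC above 0, or 92.2% against 51.8% of all genes, and the median was 0.72. None was called. With the factors 7 were higher at an unadjusted p under 0.05, or 13.7% against 4.3% of all genes. Without them 0 were, against 1.85% of all genes. The mean log2(CPM + 0.5) of the list was 0.66, 0.55, 1.21 and 1.79 with EGFP-KASH only and 0.81, 2.67, 0.81, 1.34 and 1.32 with NTG. NTG replicate 2 stood above all the others, while the other 4 NTG libraries lay inside the EGFP-KASH only range. Without NTG replicate 2 the median was 0.03, with 31 members above 0, 19 below and 0 higher at an unadjusted p under 0.05. Without EGFP-KASH only replicate 5, the highest library of that group, the median was 1.28, without EGFP-KASH only replicate 3 it was 0.43, and with sex read from Xist as a term it was 0.37.

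Among its members, Ddx60, a helicase that acts with the cytosolic RNA sensors, was at 0.623, 0.127, 4.36 and 6.81 CPM with EGFP-KASH only and at 2.20, 18.5, 0.758, 5.98 and 5.18 CPM with NTG. The groups overlapped widely, and the value of 18.5 CPM belonged to NTG replicate 2. The log2 FC was 1.62 ± 0.61 (SE), with a 95% interval from 0.34 to 2.89 and an adjusted p of 0.542 in edgeR. Ifi27, a mitochondrial interferon-induced gene, was at 3.26, 3.22, 5.36 and 7.78 CPM with EGFP-KASH only and at 9.19, 9.97, 3.07, 8.42 and 8.98 CPM with NTG. Here 4 of 5 NTG libraries exceeded every EGFP-KASH only library and NTG replicate 3 was below all of them, with a log2 FC of 0.75 ± 0.32 (SE; adjusted p = 0.587 in edgeR). These genes were at low levels, and the interval lay within 1.5-fold for 1 of the 51 and within 2-fold for 4. The same NTG replicate 2 was also the highest of the 5 NTG libraries for MHC class I genes and for markers of infiltrating immune cells, with list means of 2.81 and 0.91. Of the 16 tested markers of infiltrating immune cells, 4 averaged 1 CPM or more over the 9 libraries, and 1 member, Thy1, is also in the pan-neuronal list. The part of immune cells in the interferon values was not tested.

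**Figure D2:**
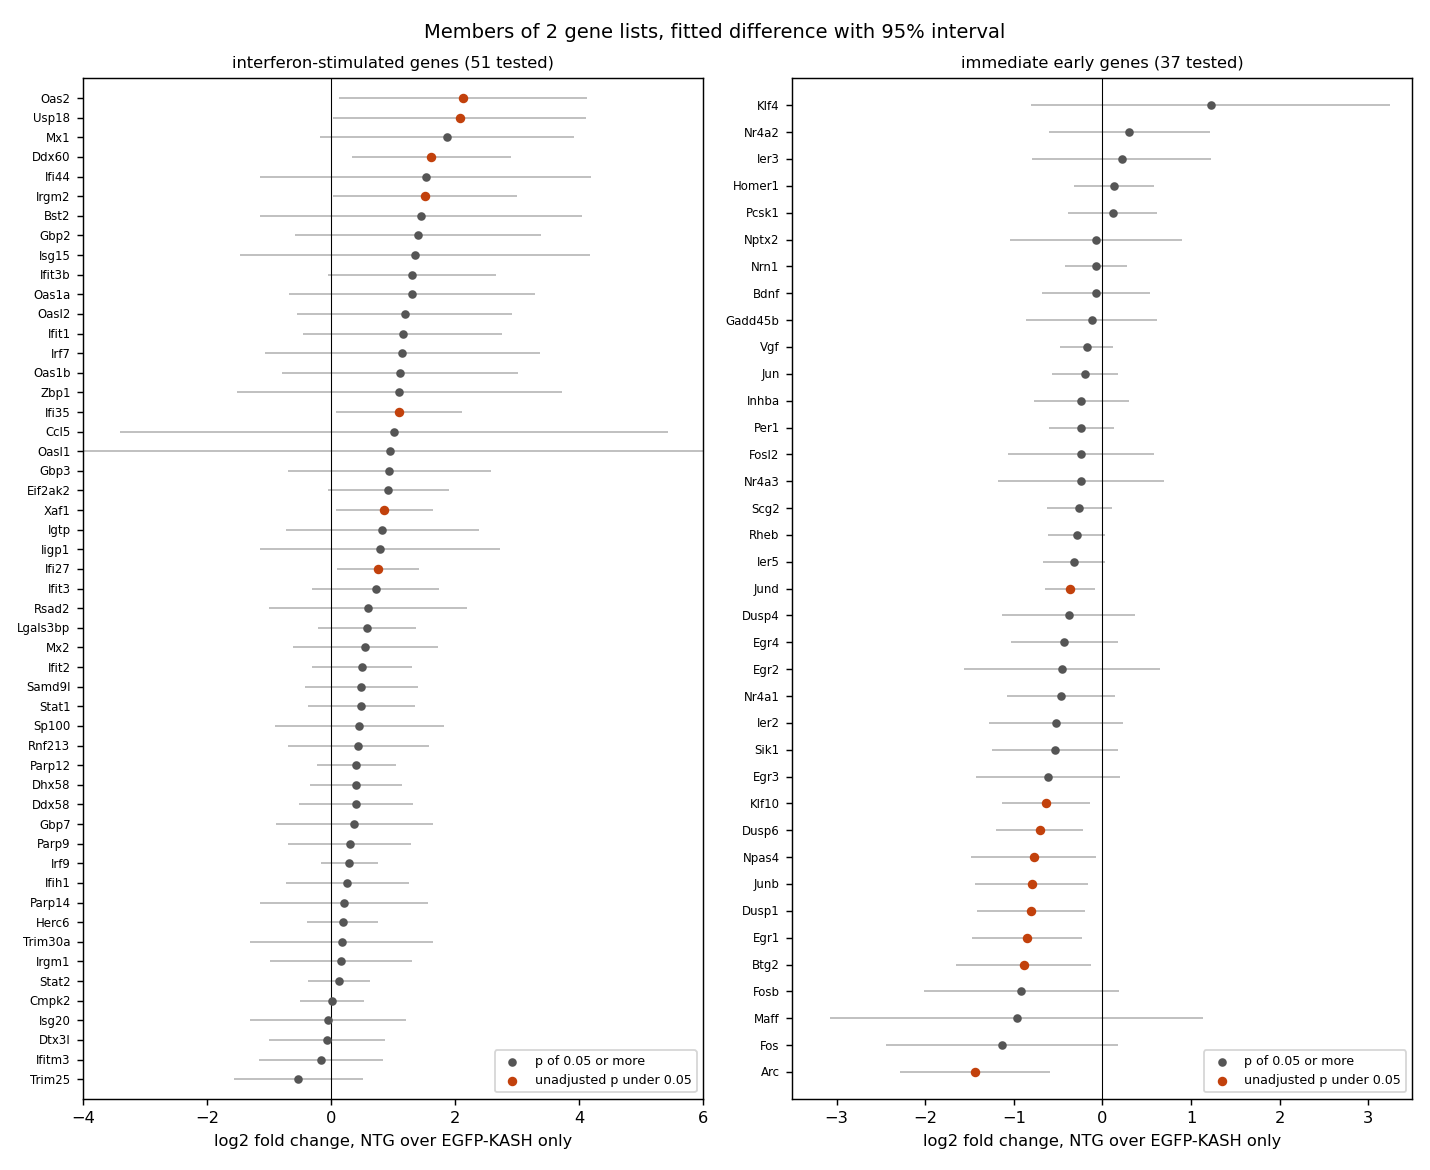
Fitted log2 FC (x axis) with 95% interval (grey bars) for each tested interferon-stimulated gene (left, 51 genes) and immediate early gene (right, 37 genes), NTG over EGFP-KASH only in C57BL/6J, with genes at an unadjusted p under 0.05 in orange and the interval of Oasl1 running past the axis. Most interferon-stimulated genes sit to the right of 0 with wide intervals (7 in orange), and 32 of 37 immediate early genes sit to the left (9 in orange).

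Genes that present peptides on MHC class I showed a smaller shift. The list had 16 of 23 members above 0 and a median log2 FC of 0.18, which was 0.06 without NTG replicate 2 and without EGFP-KASH only replicate 2 or 3. Tap1, which pumps peptides into the endoplasmic reticulum, was at 0.527, 0.169, 0.936 and 1.57 CPM with EGFP-KASH only and at 1.30, 6.13, 0.345, 1.87 and 0.902 CPM with NTG. Again NTG replicate 2 was highest and the remaining libraries overlapped (log2 FC 1.44 ± 0.65, SE; adjusted p = 0.619 in edgeR). Erap1, which trims those peptides, had a log2 FC of 0.59 ± 0.23 (SE; adjusted p = 0.558 in edgeR). The sensors that recognise foreign nucleic acid and their signalling proteins had a median of 0.01, with 14 of 27 above 0. Sting1, the adaptor of cytosolic DNA sensing, was at 0, 0, 0.0968 and 0.217 CPM with EGFP-KASH only and at 0.628, 0.3404, 0.138, 0.102 and 0.376 CPM with NTG, values so near the limit of 3 counts that its fitted FC was not read. Complement and acute-phase genes had 12 of 18 members above 0 and a median of 0.18 (0.04 without factors). That median was -0.08 with 6 of 18 above 0 without EGFP-KASH only replicate 2, 0.07 without EGFP-KASH only replicate 3, 0.06 without NTG replicate 2 and 0.31 without EGFP-KASH only replicate 4.

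Immediate early genes, which neurons transcribe within minutes of activity, had a median of -0.36, the lowest of the 33 lists in this fit. Without the factors the striatal projection neuron markers were lower (-0.31 against -0.29), and with sex as a term the oligodendrocyte markers were lower (-0.41 against -0.35). Of 37 tested members, 32 had a fitted log2 FC below 0 and 9 of these had an unadjusted p under 0.05, or 24.3% against 3.57% of all genes. Without the factors 5 of the 37 reached that level, against 1.96% of all genes. None was called in edgeR, and the smallest adjusted p was 0.473 in edgeR. Arc, which encodes a regulator of glutamate receptor trafficking, was at 49.4, 82.4, 51.7 and 58.3 CPM with EGFP-KASH only and at 12.2, 17.1, 55.1, 29.0 and 14.2 CPM with NTG. In 4 of the 5 NTG libraries it was below every EGFP-KASH only library, and NTG replicate 3 lay inside their range. The log2 FC was -1.44 ± 0.41 (SE), with a 95% interval from -2.28 to -0.59 and an adjusted p of 0.473 in edgeR.

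Dusp6, a phosphatase that shuts off ERK signalling, was at 9.78, 13.6, 13.8 and 13.02 CPM with EGFP-KASH only and at 7.46, 6.47, 10.6, 8.35 and 5.75 CPM with NTG. Only NTG replicate 3 exceeded the lowest EGFP-KASH only library, and the log2 FC was -0.71 ± 0.24 (SE; adjusted p = 0.499 in edgeR). Btg2, an activity-induced and p53-induced antiproliferative gene, had a log2 FC of -0.89 ± 0.37 (SE; adjusted p = 0.579 in edgeR). As a list, the mean log2(CPM + 0.5) was 3.15, 3.60, 3.33 and 3.32 with EGFP-KASH only and 3.01, 3.01, 3.33, 3.10 and 2.54 with NTG. NTG replicate 5 was lowest, and NTG replicate 3 stood level with the EGFP-KASH only libraries. The list median stayed below 0 in each of the 24 other settings tried, between -0.48 and -0.26. In the 9 fits that each left out 1 library, 6 to 12 members were lower at an unadjusted p under 0.05 and 0 were higher. Such constancy was not particular to this list. The ribosomal protein and pan-neuronal medians also stayed below 0 in all 24, and those of several lists, among them interferon-stimulated genes and splicing factors, stayed above 0. The settings reused the same libraries, so they are not independent.

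**Figure D3:**
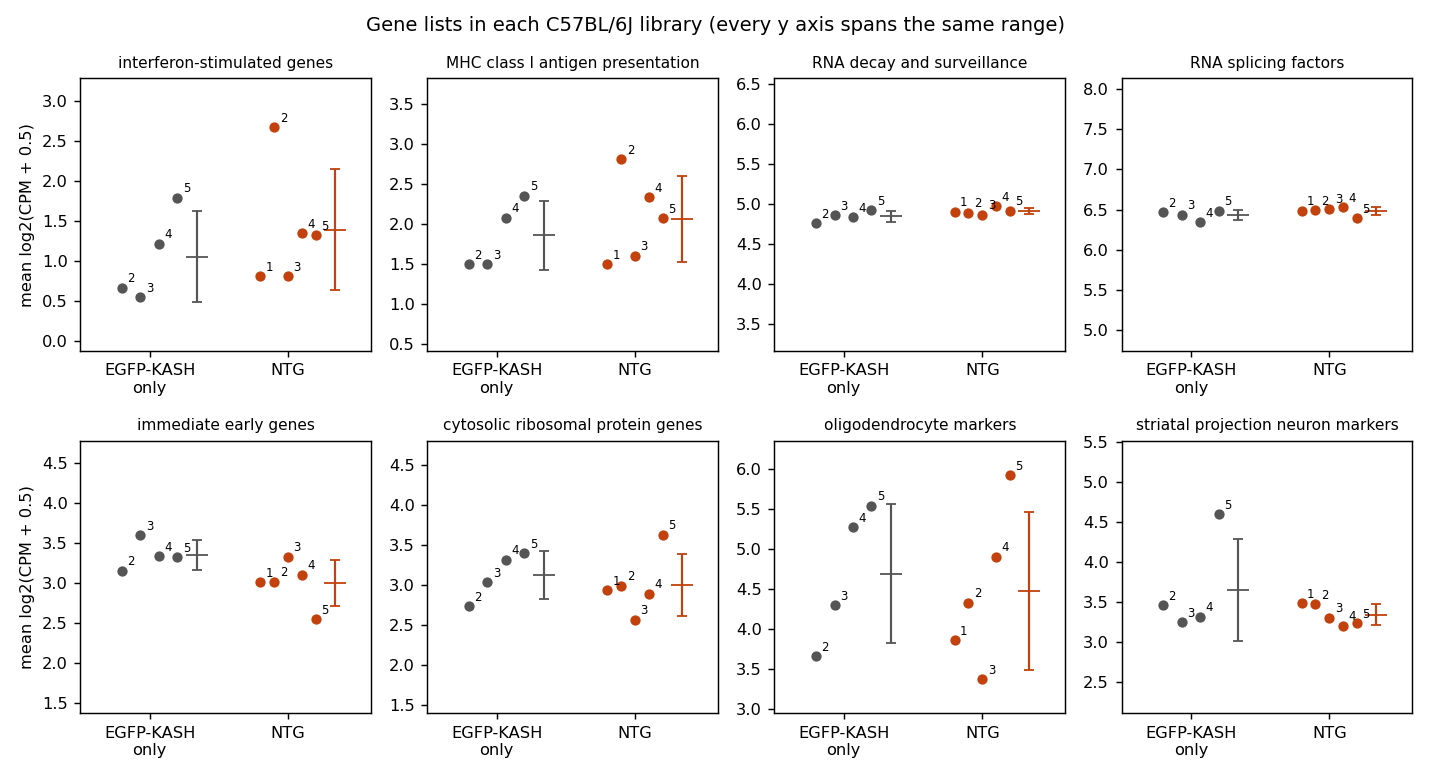
Mean log2(CPM + 0.5) of 8 gene lists (y axes, all of the same span) in each C57BL/6J library, with EGFP-KASH only in grey and NTG in orange, replicate numbers beside the points, and the group mean ± SD to the right of the points. Interferon-stimulated genes reach 2.67 in NTG replicate 2, immediate early genes are at 2.54 in NTG replicate 5, RNA decay and splicing genes hardly vary, and every pair of groups overlaps.

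Stress pathways were examined next. With p adjusted within the comparison, edgeR called none of their genes, while DESeq2 with the factors called Trib3 and Hsp90ab1. In the unfolded protein and integrated stress response list, 23 of 39 members were above 0 with a median of 0.08. Trib3, a pseudokinase induced by the stress factors ATF4 and CHOP, was at 0.0958, 0.0847, 0.129 and 0.217 CPM with EGFP-KASH only and at 0.432, 0.545, 0.482, 0.713 and 0.939 CPM with NTG. The groups did not overlap, as for 0.418% of all tested genes in that direction, and the log2 FC was 2.24 ± 0.50 (SE), with a 95% interval from 1.201 to 3.274 and an adjusted p of 0.307 in edgeR. The levels with EGFP-KASH only lay near the limit of 3 counts. DESeq2 with the factors called this gene (adjusted p = 0.0499) and DESeq2 without them did not (adjusted p = 0.134). Hsp90b1, the chaperone of the endoplasmic reticulum, had a log2 FC of 0.25 ± 0.12 (SE; adjusted p = 0.641 in edgeR).

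Both cytosolic HSP90 genes were lower in the fit, by little. Hsp90ab1 was at 56.1, 68.0, 85.8 and 95.6 CPM with EGFP-KASH only and at 47.6, 62.3, 54.0, 64.2 and 90.7 CPM with NTG. The groups overlapped, and its log2 FC of -0.27 ± 0.06 (SE) had an adjusted p of 0.307 in edgeR. In DESeq2 its adjusted p was 0.00164 with the factors and 1 without them, and in edgeR it was 0.0117 without EGFP-KASH only replicate 2 and 0.0197 without NTG replicate 5. Hsp90aa1 had a log2 FC of -0.28 ± 0.07 (SE; adjusted p = 0.473 in edgeR, and 0.0334 without NTG replicate 5). For Hsp90aa1 that replicate, at 48.9 CPM, was the highest of the 9 libraries. Without the factors the unadjusted p of Hsp90aa1 was 0.201 in edgeR. Over the 25 tested heat shock genes the median was -0.04, with 12 above 0. Targets of p53 and genes of DNA damage were divided evenly by direction, with 17 of 34 above 0 and a median of -0.01. At an unadjusted p under 0.05, 1 was higher and 3 were lower. These are 2.94% and 8.82%, against 4.3% and 3.57% of all genes. Without the factors 1 was higher and 2 were lower. For 3 of the 34, every NTG library was below every EGFP-KASH only library, as for 0.423% of all tested genes. In that list Btg2, given above, was lower, and Ddb2, which recognises ultraviolet damage, had a log2 FC of 0.28 ± 0.11 (SE; adjusted p = 0.579 in edgeR). Autophagy genes had 23 of 48 above 0 and a median of -0.01, and among them Tfeb, the regulator of lysosomal genes, had a log2 FC of -0.58 ± 0.22 and Gabarapl1 one of -0.21 ± 0.09 (SE; adjusted p = 0.542 and 0.593 in edgeR).

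Most cytosolic ribosomal protein genes had lower fitted values with NTG. Of 78 ribosomal protein genes, 63 had a fitted log2 FC below 0 with a median of -0.13. At an unadjusted p under 0.05, 12 were lower, or 15.4% against 3.57% of all genes. Without factors none reached that level, against 1.96% of all genes. Rpl14 was at 8.43, 10.6, 12.2 and 11.99 CPM with EGFP-KASH only and at 6.48, 7.15, 7.03, 7.84 and 12.8 CPM with NTG. NTG replicate 5 was the highest of the 9 libraries and the other 4 NTG libraries were below every EGFP-KASH only library, and the log2 FC was -0.41 ± 0.11 (SE; adjusted p = 0.473 in edgeR). The median of the list was -0.30 without NTG replicate 5, -0.29 without EGFP-KASH only replicate 2, -0.06 without EGFP-KASH only replicate 4 or 5, and -0.016 without NTG replicate 3. Nuclear-encoded respiratory chain subunits had 42 of 69 below 0 and a median of -0.06. This direction turned when 1 library was left out, with a median of 0.03 without EGFP-KASH only replicate 4, 0.08 without EGFP-KASH only replicate 5 and 0.04 without NTG replicate 3. It was -0.26 without EGFP-KASH only replicate 2, -0.23 without NTG replicate 5 and -0.11 without EGFP-KASH only replicate 3. Of these, Ndufb9 had a log2 FC of -0.57 ± 0.16 and Ndufs5 one of -0.85 ± 0.28 (SE; adjusted p = 0.473 and 0.493 in edgeR).

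Neuronal signalling genes had medians near 0. Voltage-gated ion channels had 31 of 55 above 0 and a median of 0.01, and the interval lay within 1.5-fold for 50 of the 55. Genes of synaptic vesicles and release had a median of -0.02 with 22 of 49 above 0, glutamate receptor genes 0.06 with 25 of 39, GABA receptor and inhibitory synapse genes 0.03 with 15 of 28, and axon guidance genes 0.01 with 33 of 61. With p adjusted within the comparison, edgeR called none of their members, while DESeq2 with the factors called Plxnc1 of the axon guidance list. Shisa9, an AMPA receptor auxiliary subunit, was at 595.6, 541.1, 396.0 and 384.7 CPM with EGFP-KASH only and at 792.8, 519.4, 739.9, 568.3 and 441.9 CPM with NTG, overlapping groups with a log2 FC of 0.35 ± 0.12 (SE; adjusted p = 0.514 in edgeR). Cplx1, which clamps vesicle fusion, had a log2 FC of -0.39 ± 0.10 (SE; adjusted p = 0.473 in edgeR). NTG replicate 5 at 105.8 CPM was the highest of the 9 libraries, and without it the log2 FC was -0.62 (adjusted p = 0.0197 in edgeR). With all libraries but without the factors, the unadjusted p of Cplx1 was 0.186 in edgeR. Genes linked to ALS and FTD had 19 of 35 above 0 and a median of 0.02, and the motor protein gene Kif5a had a log2 FC of -0.22 ± 0.07 (SE; adjusted p = 0.490 in edgeR).

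Oligodendrocyte markers varied widely within both groups. The summed level of the 30 oligodendrocyte markers ranged from 778.4 to 2766 CPM with EGFP-KASH only and from 694.7 to 3579 CPM with NTG, and the list median of -0.17 became 0.09 without NTG replicate 3 or without EGFP-KASH only replicate 5, and -0.55 without NTG replicate 5. Ninj2, an adhesion protein of glia, was at 8.24, 47.4, 75.8 and 52.9 CPM with EGFP-KASH only and at 6.75, 9.498, 7.37, 28.1 and 23.1 CPM with NTG. Apart from EGFP-KASH only replicate 2, which lay among the NTG libraries, the EGFP-KASH only libraries were above every NTG library, and the log2 FC was -1.61 ± 0.42 (SE; adjusted p = 0.473 in edgeR, and 0.0412 without that replicate). The 25 microglia markers summed to 70.7 to 128.1 CPM with EGFP-KASH only and to 45.3 to 170.5 CPM with NTG, and the 22 astrocyte markers to 1030 to 1344 CPM and 1040 to 1223 CPM.

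Among neuronal classes, upper-layer markers had 13 of 15 above 0 and a median of 0.21, deep-layer markers 7 of 24 above 0 and a median of -0.08, and pan-neuronal markers 1 of 14 above 0 and a median of -0.09. Leaving out 1 library moved these medians. For upper-layer markers the median was 0.09 with 10 of 15 above 0 without NTG replicate 2, and 0.34 without EGFP-KASH only replicate 5. For deep-layer markers it was 0.0071 with 12 of 24 above 0 without EGFP-KASH only replicate 3, -0.0091 without NTG replicate 2, -0.16 without NTG replicate 1 and -0.14 without NTG replicate 5. For pan-neuronal markers it ranged from -0.18 to -0.09 over the 9 fits. Mdga1, an adhesion regulator listed with the upper layers, was at 13.4, 6.73, 6.71 and 8.95 CPM with EGFP-KASH only and at 15.04, 18.2, 35.7, 9.68 and 7.33 CPM with NTG, overlapping groups with a log2 FC of 0.81 ± 0.34 (SE; adjusted p = 0.585 in edgeR). Pcp4, a calmodulin regulator of deep-layer neurons, was at 47.8, 61.7, 99.8 and 118.9 CPM with EGFP-KASH only. With NTG it was at 18.1, 37.4, 36.4, 46.9 and 114.5 CPM. NTG replicate 5 lay inside the EGFP-KASH only range, and the other NTG libraries were below it. The log2 FC was -0.82 ± 0.22 (SE; adjusted p = 0.473 in edgeR, and 0.0334 without NTG replicate 5). Without the factors its unadjusted p was 0.107 in edgeR. Markers of striatal projection neurons had a mean log2(CPM + 0.5) of 4.602 in EGFP-KASH only replicate 5 and of 3.21 to 3.49 in the other 8 libraries. Their median of -0.31 was 0.07 without that library.

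**Figure D4:**
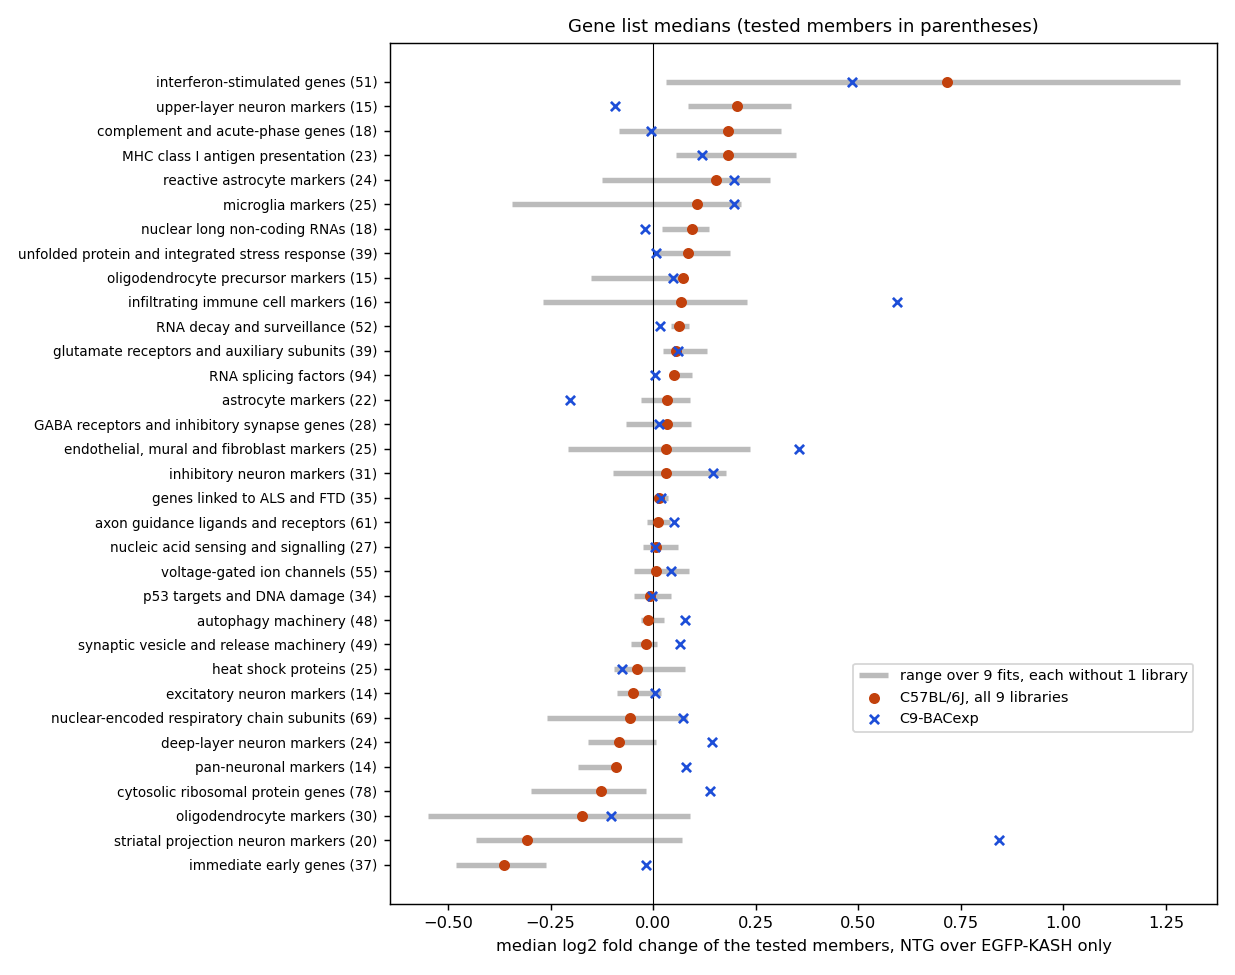
Median fitted log2 FC of NTG over EGFP-KASH only (x axis) for the tested members of each of the 33 gene lists (number in parentheses), in C57BL/6J (orange points) and in C9-BACexp (blue crosses), with the range of the C57BL/6J median over 9 fits that each left out 1 library (grey bars). The bar of the interferon-stimulated genes spans 0.03 to 1.28. That of the immediate early genes, -0.48 to -0.26, stays left of 0, as do those of the ribosomal protein genes and pan-neuronal markers.

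The following genes were chosen after their values were seen, as the 12 named genes of at least 1 CPM with the smallest p, leaving aside predicted genes and genes named as clones. Of these Hsp90ab1 and Hsp90aa1 were given above and Plxnc1 belongs to the axon guidance list. Fbxl17 (chromosome 17, 63364447 to 63807636, minus strand, GRCm39), which encodes an F-box protein of a ubiquitin ligase, was at 380.7, 414.4, 437.4 and 406.2 CPM with EGFP-KASH only and at 553.8, 460.1, 451.1, 486.8 and 476.1 CPM with NTG. The groups did not overlap, as for 0.418% of all tested genes in that direction, and the log2 FC was 0.24 ± 0.05 (SE; adjusted p = 0.305 in edgeR). DESeq2 gave this gene an adjusted p of 2.36e-05 with the factors and 0.0473 without, at a fold below the limit of 1.2. Abca8b (chromosome 11, 109823016 to 109886691, minus strand), a lipid transporter gene, was at 55.1, 53.2, 63.5 and 66.1 CPM with EGFP-KASH only and at 78.7, 89.9, 79.2, 76.2 and 94.1 CPM with NTG. These groups also did not overlap (log2 FC 0.50 ± 0.11, SE; adjusted p = 0.307 in edgeR). Plxnc1 (chromosome 10, 94626728 to 94780877, minus strand), a semaphorin receptor, was at 91.5, 88.6, 89.2 and 89.8 CPM with EGFP-KASH only and at 131.2, 127.9, 113.4, 134.9 and 89.6 CPM with NTG. Only NTG replicate 5 lay within the narrow EGFP-KASH only range (log2 FC 0.41 ± 0.09, SE; adjusted p = 0.307 in edgeR). Its adjusted p was 0.00377 in DESeq2 with the factors and 0.302 without them, and 0.0197 in edgeR without NTG replicate 5.

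On the lower side, Rhbdd1 (chromosome 1, 82294173 to 82423782, plus strand), a rhomboid protease gene, was at 14.5, 17.8, 19.5 and 19.3 CPM with EGFP-KASH only and at 6.79, 13.99, 6.61, 11 and 14.4 CPM with NTG. The groups did not overlap, as for 0.423% of all tested genes in that direction, with a gap of less than 1 CPM between EGFP-KASH only replicate 2 and NTG replicate 5 (log2 FC -0.79 ± 0.18, SE; adjusted p = 0.307 in edgeR). Calm2 (chromosome 17, 87740829 to 87754363, minus strand), 1 of the calmodulin genes, was at 63.6, 72.4, 135.6 and 135.7 CPM with EGFP-KASH only and at 62.1, 87.7, 56.9, 73.9 and 120.3 CPM with NTG. The groups overlapped throughout, and the log2 FC of -0.32 ± 0.07 (SE; adjusted p = 0.307 in edgeR) was close to the -0.35 of the fit without factors. Its unadjusted p was not, at 0.00013 with the factors and 0.161 without them in edgeR. Mcee, an enzyme of propionate breakdown, had a log2 FC of -1.05 ± 0.23, the antisense gene Nrg3os one of -1.23 ± 0.24, and Rtf1, a transcription elongation factor, one of -0.25 ± 0.06 (SE; adjusted p = 0.307, 0.247 and 0.473 in edgeR). Of the remaining genes, Glra1, a glycine receptor subunit, was at 0.192, 0.551, 0.161 and 0.136 CPM with EGFP-KASH only and at 4.51, 1.12, 2.48, 1.97 and 0.338 CPM with NTG (log2 FC 3.01 ± 0.74, SE; adjusted p = 0.473 in edgeR). NTG replicate 5 was the single overlapping library, and DESeq2 called this gene with the factors (adjusted p = 0.00717) and without them (adjusted p = 0.0168). Spidr, a DNA repair scaffold, had a log2 FC of 1.34 with the factors and of 0.64 without. DESeq2 with the factors also called Nrg3os, Calm2, Mcee, Abca8b, Rhbdd1 and Spidr, with adjusted p from 0.000501 to 0.0136, and without the factors it called none of these 6, with adjusted p from 0.0583 to 1.

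**Figure D5:**
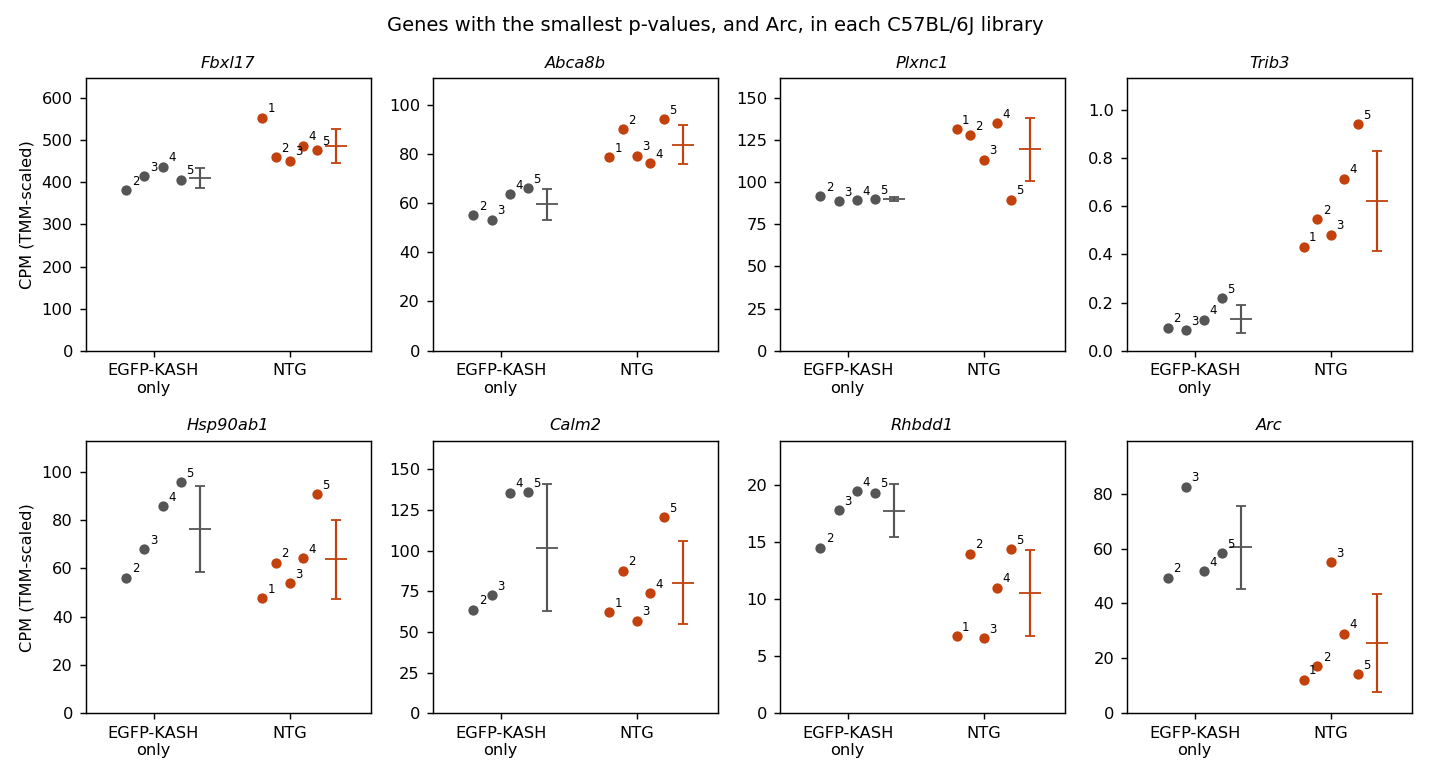
CPM scaled by TMM (y axes from 0) of 8 genes in each C57BL/6J library, with EGFP-KASH only in grey, NTG in orange, replicate numbers beside the points and the group mean ± SD to the right of the points. Fbxl17, Abca8b, Trib3 and Rhbdd1 do not overlap between the groups, whereas Plxnc1, Hsp90ab1, Calm2 and Arc do.

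The reporter shared by both groups did not differ between them beyond its spread. EGFP-KASH was at 59.2, 38.0, 9.42 and 33.2 CPM with EGFP-KASH only and at 15.2, 29.7, 65.1, 40.6 and 20.4 CPM with NTG, and the ranges lay almost on top of each other. The difference in mean log2(CPM + 0.5) was 0.04 (exact permutation test, two-sided, p = 0.921, n = 4 and 5, smallest possible p = 0.00794), and the 95% interval of the fitted log2 FC ran from -0.49 to 0.53. Mouse C9orf72, the ortholog of the gene that crRNA-13 was designed against, was at 10.4, 14.8, 32.8 and 32.5 CPM with EGFP-KASH only and at 24.6, 22.1, 15.6, 21.9 and 31.5 CPM with NTG. The NTG libraries lay inside the EGFP-KASH only range, with a difference of 0.16 (exact permutation test, two-sided, p = 0.659, adjusted over these 2 genes 0.921, n = 4 and 5). The 95% interval of its fitted log2 FC ran from -0.14 to 0.42. The table holds no row for the effector, so its RNA was not measured here.

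The same contrast was made in C9-BACexp mice, with 6 NTG and 3 EGFP-KASH only libraries that are not among the 9 above, and its test of the difference between genotypes found 0 genes (edgeR, smallest adjusted p = 0.142, 2249 genes or 10.3% at an unadjusted p under 0.05), as did limma-trend. In C9-BACexp mice 7 genes were called (0.0322%), 5 higher and 2 lower, and 58% of all tested genes had a fitted log2 FC above 0. Interferon-stimulated genes had a median log2 FC of 0.48 there with 39 of 51 above 0, and 0 members were called in either genotype. Immediate early genes had a median of -0.02 with 18 of 37 above 0, ribosomal protein genes 0.14 with 60 of 78 above 0, and upper-layer markers -0.09 with 6 of 15 above 0. Trib3 had a log2 FC of -0.32 ± 0.45 (SE) in C9-BACexp, and its difference between the genotypes had an adjusted p of 0.242 in edgeR. Arc had a log2 FC of -0.59 ± 0.42 and Fbxl17 one of -0.03 ± 0.05 (SE) in C9-BACexp, with adjusted p of 0.637 and 0.244 for the difference between the genotypes in edgeR.

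Values with crRNA-13 in C57BL/6J (n = 3) are given beside those with NTG for scale only, since both were set against the same 4 EGFP-KASH only libraries. The labels name RfxCas13d-N2V8 for the crRNA-13 mice and RfxCas13d for the NTG mice. With crRNA-13, edgeR called 72 genes higher (0.331%) and 16 lower. Of the 51 interferon-stimulated genes 26 were among those called higher, with a median log2 FC of 3.25 against 0.72 with NTG. For Ddx60 the log2 FC was 4.34 with crRNA-13 (adjusted p = 0.0102 in edgeR) and 1.62 with NTG. Immediate early genes had a median of -0.34 with crRNA-13 and of -0.36 with NTG, and Arc a log2 FC of -0.79 and -1.44.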

How the data were processed

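RNA of sorted EGFP-KASH+ nuclei from the MC of C57BL/6J mice was compared between NTG (n = 5) and EGFP-KASH only (n = 4). The deposited values are expected counts, which the authors estimated with Salmon 1.10.0 and brought to gene level with tximport in R 4.3.1. Their index held mouse transcripts of the NCBI annotation, both spliced and not, the human C9ORF72 transcripts and EGFP-KASH. Unspliced reads are included, so values mix nascent and mature RNA, and multi-mapped reads are shared among related genes. Of 39338 rows, 21768 passed filterByExpr (smallest count 10, smallest total 15) and held all 20991 genes marked as kept by the authors. After rounding and TMM scaling, edgeR 4.0.16 (robust quasi-likelihood) was run in R 4.3.3, in 1 model of 27 libraries and 6 groups with 4 factors of unwanted variation computed from residuals. The study used 4 RUVSeq factors but does not name the method, so this is an assumption. P-values were adjusted within the comparison. Standard errors are the log2 FC divided by the square root of F. The scripts were tested on simulated counts that held no unwanted variation shared among genes. Such a test cannot show how the factors act on the p-values of these libraries. Alternatives used limma 3.58.1, DESeq2 1.42.0, other factor numbers, filters, scalings and libraries.

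Named genes are called genes (none here), otherwise 2 genes per list, those of smallest p, the reporter and C9orf72, to which 12 genes with the smallest p were added after their values were seen. Coordinates are from GENCODE vM39 (GRCm39). The comparison and the gene lists were chosen with earlier results of these data known. Labels give neither sex nor batch. Their protocol fields describe transfected cells, so the study's methods were followed. Nothing states which replicate numbers belong together. Each library is taken as 1 mouse, so p-values without the factors measure spread between mice. With the factors, which were computed from residuals of the same libraries, p-values and standard errors measure only the spread that the factors left. Among genes of at least 1 CPM, the median standard error was 0.162 with the factors and 0.231 without them. The totals were 21508829 to 35834122 counts. Genes below about 3 CPM were loosely bounded, and the parts of depth and of spread between mice in this were not tested.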

Additional observations from a re-analysis of the deposited data

Results flagged for a closer look

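Of 218 sets of 4 or 5 values examined, 13 held a highest or lowest library whose gap to its nearest neighbour was above Dixon's 95% critical value. Chance alone gives about 1 in 20 sets. NTG replicate 2 stood apart for the mean log2(CPM + 0.5) of interferon-stimulated genes, 2.67 against 1.34 in the next library, for that of infiltrating immune cell markers, 0.91 against 0.49, and for Tap1, 6.13 against 1.87 CPM. NTG replicate 5 stood apart for Rpl14 (12.85 against 7.84 CPM), Cplx1 (105.8 against 58.4 CPM) and the DNA repair gene Spidr (23.03 against 8.28 CPM). NTG replicate 3 was low for Ifi27 (3.07 against 8.42 CPM), and NTG replicate 1 was high for Stxbp5, a regulator of vesicle release (326.9 against 252.8 CPM).

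Among the libraries with EGFP-KASH only, replicate 5 was high for the mean of striatal projection neuron markers (4.602 against 3.46) and for 1 of them, Adora2a (8.63 against 0.775 CPM). Replicate 3 was high for the mean of deep-layer neuron markers (5.15 against 4.89), for the smooth muscle gene Tagln (1.14 against 0.271 CPM) and for Glra1 (0.551 against 0.192 CPM).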

How the results depend on the processing

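The count of 0 called genes held in edgeR and limma-trend with and without factors, without a filter, with other scaling, and with sex read from Xist as a term, an alternative chosen after the data were seen. It became 55 in DESeq2 with 4 factors, 21 in DESeq2 without factors, 23 with p adjusted over 9 comparisons, and 0 to 14 in fits that each left out 1 library. Called members of the lists, 0 in edgeR, were 3 in DESeq2 with 4 factors, 4 with p adjusted over 9 comparisons and 0 to 5 when 1 library was left out, 5 of them without NTG replicate 5. The 0 genes that differed between genotypes became 1 without a filter on low counts and 0 to 2 when 1 library was left out. Leaving out 1 library moved the permutation difference from -0.48 to 0.38 for EGFP-KASH and from -0.15 to 0.39 for C9orf72.

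Of 1814 values for 76 named genes, 1783 kept direction and side of the threshold, 21 passed it and 10 changed direction. Those 10 belong to Ptbp2, EGFP-KASH and C9orf72. Ptbp2 was at -0.043 without EGFP-KASH only replicate 2 and at up to 0.37 without another library. EGFP-KASH was at -0.029 without factors, -0.038 in the 9 libraries alone, -0.020 in the 12 C57BL/6J libraries, -0.036 in DESeq2 without factors, -0.45 without EGFP-KASH only replicate 4, -0.29 without NTG replicate 3 and -0.09 without NTG replicate 4, and reached 0.33 without another library. C9orf72 was at -0.18 and -0.01 without EGFP-KASH only replicates 2 and 3 and reached 0.37 without another library. The cause of these changes was not tested.

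With the replicate number as a block, 0 genes were called in the 9 libraries (397 against 437 without the block at an unadjusted p under 0.05) and 0 in the 27 libraries (1685), and 0 differed between genotypes. Correlations of same-numbered libraries were -0.09, 0.25, 0.01 and 0.25 for numbers 2 to 5, and only numbers 3 and 5 matched their own best, so the numbers were not taken as pairs. Genes at 1 to 3 CPM had intervals within 1.5-fold in 3.51% of cases, so for most of them the interval reached past 1.5-fold.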
